A study of Mus musculus with 21 samples.

Results

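Endurance training and the post-exercise expression of 10 genes of autophagy and mitophagy were followed in mouse muscle: Tfeb, Sqstm1, Map1lc3a, Map1lc3b, Gabarapl1, Ulk1, Wipi1, Bnip3, Bnip3l and Lamp2. The genes were chosen by symbol, with earlier results of these data known, and were found as 10 of the 53738 gene symbols in the expression table. Bulk RNA-seq had been performed on crushed quadriceps muscle of male C57/Bl6 wild-type mice, sacrificed at an age of 22 to 26 weeks, in 7 groups of 3 labelled samples. Sedentary mice had performed no exercise, untrained mice had run to exhaustion on a treadmill at an incline of 5° without prior training, and trained mice had done the same after 12 weeks with voluntary running wheels. Untrained and trained mice were sacrificed directly after the bout (0 h) or 6 h or 72 h later. Levels are in TPM (transcript abundance scaled to a common library total), which corrects for transcript length and for the total of each library, so levels can be set side by side between genes.

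In autophagy, a double membrane closes around cytoplasm, protein aggregates or organelles and delivers them to the lysosome for degradation. The ULK1 kinase starts the process, WIPI proteins bind the growing membrane, and small proteins of the ATG8 family (LC3 and GABARAP proteins) are attached to its lipids, where they hold cargo receptors such as p62. In mitophagy the cargo is a mitochondrion, recognised for example by BNIP3 and BNIP3L on its surface, and in skeletal muscle autophagy is known to respond to fasting, denervation and exercise.

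Replicate 1 of the untrained 0 h group and replicate 1 of the trained 0 h group held the same values throughout, so that 20 distinct libraries were present and this library could not be assigned to either group. It was left out of both, which left 19 libraries and n = 2 for each 0 h group. For Gabarapl1, Map1lc3a, Sqstm1 and Bnip3, results at 0 h are also given with it in both groups or in the group discussed. Genes of the mitochondrial genome held 37.7% to 48.0% of the TPM of a library. The labelled tissue was borne out by 8 muscle fibre markers, including Acta1 and Ckm, which together reached 54866 to 74033 TPM in the libraries compared. A gene was called changed at an adjusted p below 0.05 (limma on log2(TPM + 0.5), Benjamini-Hochberg over the 11822 genes whose mean level reached 1 TPM) and a fold change of at least 1.5. All 10 genes passed the filter on expression. Where libraries of groups are said not to overlap, this is descriptive, and its share over all tested genes was not determined. The 6 comparisons with sedentary muscle share the same 3 sedentary libraries and are therefore not independent of each other.

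All 10 genes were well expressed, with mean levels over the 19 libraries from 15.6 TPM for Ulk1 and 15.7 TPM for Lamp2 to 213 TPM for Sqstm1. Between 76.3% and 97.6% of all tested genes had a lower mean than these genes. Gabarapl1 varied most, with a coefficient of variation of 54.6% across the libraries, followed by Bnip3l with 27.2% and Sqstm1 with 21.7%. Lamp2, Map1lc3b and Map1lc3a varied least, by 6.93%, 7.21% and 9.74%, against a median of 15.2% over all tested genes.

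**Figure D1:**
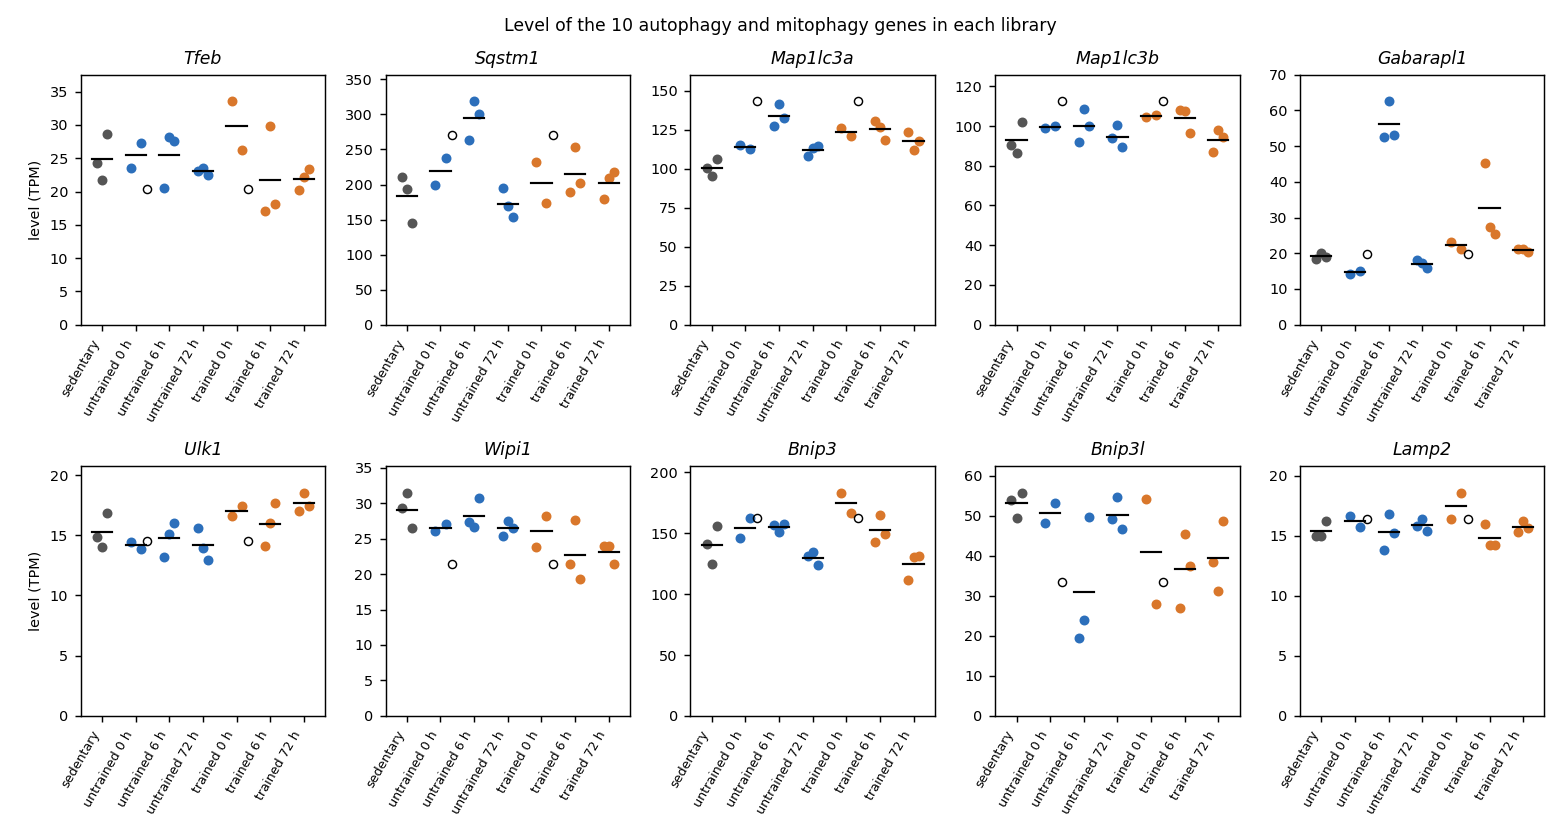
Level (TPM) of each of the 10 genes in every library, by group. Points are libraries and bars are group means, in grey for sedentary, blue for untrained and orange for trained muscle, and the open circle is the library listed in both 0 h groups, which is not part of the means. Gabarapl1 stood at 52.5 to 62.6 TPM in untrained muscle at 6 h, above every other library.

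Among the comparisons with sedentary muscle, 2 of the 10 genes were called in untrained muscle at 6 h, Gabarapl1 and Sqstm1, both higher, while 4.22% of all tested genes were called in that comparison. In trained muscle at 6 h, 1 of the 10 was called, again Gabarapl1, against 3.81% of all tested genes. At 0 h limma called 0 of the 10 in untrained muscle, where 2.89% of all genes were called, and 2 of the 10 and 17.5% of all genes had an unadjusted p below 0.05. In trained muscle at 0 h it also called 0 of 10, against 3.21% of all genes, and 3 of the 10 and 21.8% of all genes had an unadjusted p below 0.05. At 72 h limma called 0 of 10 in either group, with 1 of 10 in untrained and 3 of 10 in trained muscle at an unadjusted p below 0.05, against 6.06% and 12.8% of all genes. Calls were rare among all genes at that time point, at 0.00846% in untrained and 0.245% in trained muscle.

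Trained and untrained muscle were also compared at each time point. No trained group without the bout was present. The bout ran to exhaustion and followed the wheel access without a rest period, and the paper reports better performance of trained mice. Training, recent wheel running and the amount of exercise in the bout therefore cannot be told apart in the differences of trained muscle. At 6 h, 1 of the 10 genes was called, with Gabarapl1 lower in trained muscle, against 1.93% of all tested genes. At 0 h limma called 0 of 10 with 0% of all genes called, and 2 of 10 and 4.46% of all genes had an unadjusted p below 0.05. At 72 h limma called 0 of 10 with 0.364% of all genes called, and 1 of 10 and 16.3% of all genes had an unadjusted p below 0.05.

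The median log2 fold change of the 10 genes was 0.07 in untrained and 0.09 in trained muscle at 6 h, against 0.01 and -0.01 over all tested genes. At 0 h the median of the 10 was 0.05 in untrained and 0.18 in trained muscle, against 0.08 and 0.12 over all genes. The calls thus fell on an ATG8 gene and a cargo receptor gene, while the median of the 10 differed little from that of all genes.

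**Figure D2:**
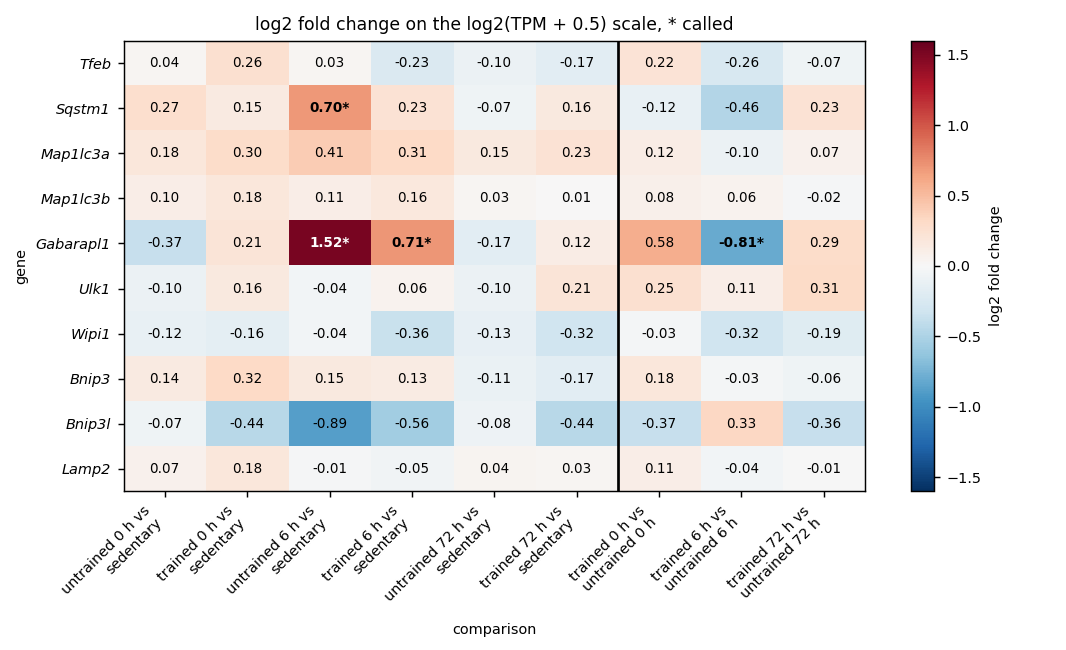
log2 fold change of each gene (rows) in each of the 9 comparisons (columns) on the log2(TPM + 0.5) scale, with red for higher and blue for lower, and an asterisk and bold type where the gene was called. The line separates the 6 comparisons with sedentary muscle from the 3 of trained with untrained muscle. Of the 4 calls, 3 were Gabarapl1, at 1.52, 0.71 and -0.81, and 1 was Sqstm1, at 0.70.

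ATG8 proteins are conjugated to the autophagosome membrane, and Gabarapl1 encodes a member of the GABARAP branch. The gene lies at chr6:129509725-129520544 on the plus strand (GRCm39). Gabarapl1 stood at 18.4, 20.0 and 19.1 TPM in the sedentary libraries, at 52.5, 62.6 and 53.2 TPM 6 h after exercise in untrained mice and at 45.2, 27.4 and 25.5 TPM in trained mice. Every 6 h library was thus above every sedentary library, and the lowest untrained value was above the highest trained value. The rise over sedentary muscle was 1.52 on the log2 scale in untrained muscle (95% CI 1.19 to 1.85, limma adjusted p = 2.88e-05), a 2.87-fold change. In trained muscle it was 0.71 (95% CI 0.38 to 1.04, limma adjusted p = 0.0102), a 1.63-fold change, and the trained libraries were spread more widely (32.7 ± 10.8 TPM, SD, n = 3) than the untrained ones (56.1 ± 5.61 TPM, SD, n = 3).

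The direct comparison at 6 h gave a level of Gabarapl1 in trained muscle that was 0.81 lower on the log2 scale than in untrained muscle (95% CI -1.14 to -0.48, limma adjusted p = 0.0082). Without trained 6 h replicate 1, the highest of its group, the rise in trained muscle was 0.45 and fell short of the required fold, with an adjusted p of 0.00688 in limma. The difference between trained and untrained muscle kept its call without each of the 6 libraries in turn, at -1.07 to -0.66. When only the groups compared were fitted, which leaves few degrees of freedom for the spread, the adjusted p in limma was 0.158 for trained against sedentary and 0.278 for trained against untrained muscle, with the call of untrained muscle retained at 0.00246.

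At the other time points Gabarapl1 was not called. At 0 h untrained muscle had 14.2 and 15.1 TPM and trained muscle had 23.2 and 21.3 TPM, with 19.7 TPM in the library that is listed in both groups. The untrained values were below and the trained values above all sedentary ones, but the differences of -0.37 (limma adjusted p = 0.28) and 0.21 (adjusted p = 0.492) did not pass the test. With the shared library in both groups they were -0.24 and 0.15. At 72 h untrained muscle had 18.0, 17.1 and 15.8 TPM and trained muscle 21.2, 21.2 and 20.4 TPM. Trained muscle was again on the higher and untrained muscle on the lower side of sedentary muscle without overlap, and neither the differences from sedentary muscle of -0.17 and 0.12 nor the difference between both of 0.29 passed the test (limma adjusted p = 0.926, 0.794 and 0.371). Ordered by group mean, Gabarapl1 descended from untrained 6 h over trained 6 h, trained 0 h, trained 72 h, sedentary and untrained 72 h to untrained 0 h, and the libraries of no neighbouring groups in this order overlapped. The order was set by these same values, so this separation is descriptive.

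The other ATG8 genes changed less. Map1lc3a encodes LC3A, which is conjugated to the same lipid. Its level was 100.4, 95.1 and 106 TPM in sedentary muscle. At 6 h, untrained muscle had 128, 142 and 133 TPM and trained muscle had 130.5, 126 and 119 TPM. All exercised libraries at 6 h were above all sedentary ones, and Map1lc3a passed the adjusted p but not the fold of 1.5, with a log2 difference of 0.41 in untrained (SE 0.06, limma adjusted p = 0.000499) and 0.31 in trained muscle (SE 0.06, limma adjusted p = 0.00386). The same held in trained muscle at 0 h, where it was 126 and 121 TPM and differed by 0.30 (limma adjusted p = 0.0148). After rescaling the libraries without the mitochondrial genome and the 10 highest genes, this difference at 0 h was 0.15 (limma adjusted p = 0.239), while the median of all genes moved by -0.14. At 72 h Map1lc3a differed by 0.23 in trained muscle (limma adjusted p = 0.108), and by 0.27 and 0.31 with median-of-ratios scaling and after rescaling, which passed the adjusted p (0.0451 and 0.0174 in limma) but not the fold. Untrained muscle had 115 and 113 TPM at 0 h and 108, 113 and 115 TPM at 72 h, also above all sedentary libraries. There it differed from sedentary muscle by 0.18 and 0.15 (limma adjusted p = 0.162 and 0.764). The differences between trained and untrained muscle, 0.12 at 0 h and 0.07 at 72 h, did not pass the test. With the shared library in both groups, Map1lc3a differed by 0.29 in untrained and 0.37 in trained muscle at 0 h (limma adjusted p = 0.0521 and 0.0138).

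Map1lc3b, encoding the LC3B protein that is widely used as an autophagosome marker, ranged from 86.5 to 109 TPM over the 19 libraries. Its log2 differences from sedentary muscle lay between 0.01 and 0.18 in the 6 comparisons, and none passed the test. In trained muscle at 6 h the 95% CI of the difference was 0.00 to 0.33, and with median-of-ratios scaling the difference was 0.18 (limma adjusted p = 0.0496), below the fold of 1.5.

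The 5 ATG8 messages together summed to 306 to 330 TPM in sedentary muscle and to 387 to 396 TPM in untrained muscle at 6 h, without overlap. Trained muscle at 6 h summed to 346 to 401 TPM. Gabarapl1 made up 6.12% ± 0.395 (SD, n = 3) of this sum in sedentary muscle, 14.3% ± 1.27 in untrained and 8.79% ± 2.15 in trained muscle at 6 h (SD, n = 3 each). Gabarap, the founding member of the branch, differed from sedentary muscle by -0.03 in untrained and 0.10 in trained muscle at 6 h, and Gabarapl2 by 0.06 and -0.01, and none of these passed the test. At 6 h, LC3A and LC3B messages were still the most abundant of the family.

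**Figure D3:**
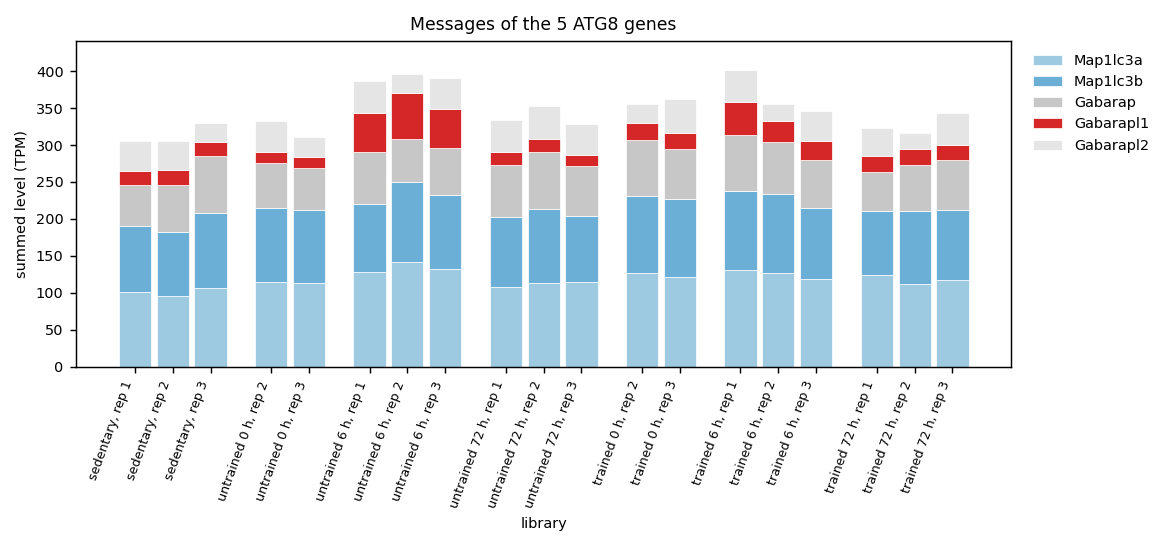
Summed level (TPM) of the 5 ATG8 genes in each of the 19 libraries, stacked by gene and ordered by group. The red segment, Gabarapl1, makes up 13.6% to 15.8% of the bar in untrained muscle at 6 h and 5.78% to 6.55% in sedentary muscle.

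Sqstm1 encodes p62, a receptor that carries ubiquitinated cargo to ATG8 proteins and is itself degraded with it. The gene lies at chr11:50089572-50107684 on the minus strand (GRCm39). Its level was 210.4, 194 and 145 TPM in sedentary muscle, and at 6 h it was 263, 319 and 301 TPM in untrained mice and 189, 253 and 201 TPM in trained mice. All untrained 6 h libraries were above all libraries of both other groups, while the trained and the sedentary libraries overlapped. The rise in untrained muscle was 0.70 on the log2 scale (95% CI 0.35 to 1.04, limma adjusted p = 0.0146), a 1.62-fold change.

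In trained muscle at 6 h the log2 difference of Sqstm1 was 0.23 (95% CI -0.11 to 0.58, limma adjusted p = 0.401). The difference between trained and untrained muscle was -0.46 (95% CI -0.81 to -0.12) and did not pass the test (limma adjusted p = 0.127). Its call in untrained muscle was lost without sedentary replicate 3, the lowest sedentary library, at a log2 change of 0.54 and an adjusted p of 0.0581 in limma, and without untrained 6 h replicate 2, at 0.64 and 0.0597. It was also lost when only both groups were fitted (limma adjusted p = 0.124).

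At 0 h, Sqstm1 was 199.6 and 238 TPM in untrained mice and 232 and 174 TPM in trained mice, and the shared library had 271 TPM. At 72 h untrained mice had 195, 169 and 154 TPM and trained mice 179, 209 and 218 TPM. The libraries of both time points overlapped with the sedentary ones, and the log2 differences of -0.07 to 0.27 did not pass the test. With the shared library in both groups, Sqstm1 differed by 0.37 in untrained and 0.29 in trained muscle at 0 h (limma adjusted p = 0.205 and 0.292).

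Tfeb encodes a transcription factor that activates lysosomal and autophagy genes and that is controlled to a large part by its location in the cell. Its level ranged from 17.1 to 33.6 TPM over the 19 libraries, and the log2 differences from sedentary muscle lay between -0.23 and 0.26. Neighbouring groups overlapped throughout the order of the group means. In trained muscle at 6 h the libraries had 17.1, 29.9 and 18.2 TPM, and 1 of them was thus above and the other 2 were below all sedentary libraries (24.2, 21.7 and 28.6 TPM).

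Ulk1, the kinase that initiates autophagosome formation, was 14.9, 14.0 and 16.8 TPM in sedentary muscle and differed from it by at most 0.21, the value in trained muscle at 72 h (limma adjusted p = 0.37). At 72 h trained mice had 17.1, 18.5 and 17.4 TPM and untrained mice 15.6, 14.0 and 13.0 TPM. All trained libraries were above all untrained ones, and the difference of 0.31 (95% CI 0.11 to 0.51) did not pass the test (limma adjusted p = 0.127). With median-of-ratios scaling it was 0.40 and passed the adjusted p (0.0313 in limma) but not the fold of 1.5, and after rescaling without the mitochondrial genome and the 10 highest genes it was 0.43 (limma adjusted p = 0.0569).

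Wipi1, which binds a phosphoinositide on the forming autophagosome, had its highest mean in sedentary muscle, at 29.3, 31.5 and 26.5 TPM. The level in trained muscle was 21.4, 27.6 and 19.3 TPM at 6 h and 24.0, 23.9 and 21.4 TPM at 72 h. At 72 h trained and sedentary libraries did not overlap, whereas at 6 h 1 trained library was within the sedentary range. The log2 differences of -0.36 (95% CI -0.60 to -0.12, limma adjusted p = 0.0588) and -0.32 (95% CI -0.57 to -0.08, limma adjusted p = 0.238) did not pass the test.

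BNIP3 and BNIP3L are related receptors of the outer mitochondrial membrane that bind ATG8 proteins, and Bnip3 is a known target of hypoxia-inducible factors. Bnip3 lies at chr7:138490690-138511253 on the minus strand (GRCm39). Its level was 141, 124 and 156 TPM in sedentary muscle and 183 and 167 TPM in trained muscle at 0 h, with 163 TPM in the shared library. Both trained 0 h libraries were above all sedentary ones, and the log2 difference of 0.32 (95% CI 0.11 to 0.53) did not pass the test (limma adjusted p = 0.0768). With the shared library it was 0.29, below the fold of 1.5, with an adjusted p of 0.048 in limma, and after rescaling without the mitochondrial genome and the 10 highest genes it was 0.17 (adjusted p = 0.436).

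In untrained muscle at 0 h, Bnip3 was 146 and 163 TPM. At 6 h, untrained mice had 156, 151 and 158 TPM and trained mice 143, 165 and 149.9 TPM, and at 72 h they had 131, 135 and 124 TPM and 112, 131 and 131.5 TPM, respectively. These groups overlapped with sedentary muscle or differed from it by no more than 0.17 on the log2 scale, and none of the differences passed the test.

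Bnip3l stood at 53.9, 49.5 and 55.7 TPM in sedentary muscle, and 6 h after exercise at 19.3, 23.8 and 49.6 TPM in untrained mice and at 27.0, 45.4 and 37.4 TPM in trained mice. Of the 6 exercised libraries, 5 were below all sedentary ones, and untrained 6 h replicate 3 was at the lower edge of their range. The log2 differences were -0.89 in untrained (95% CI -1.55 to -0.22, limma adjusted p = 0.0969) and -0.56 in trained muscle (95% CI -1.23 to 0.11, limma adjusted p = 0.285), and did not pass the test. Without untrained 6 h replicate 3 the difference in untrained muscle was -1.28 and passed (limma adjusted p = 0.0106).

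The spread of Bnip3l was wide in other groups as well, with 54.1 and 28.0 TPM in trained muscle at 0 h and 38.4, 31.2 and 48.6 TPM at 72 h. A transcribed processed copy, Bnip3l-ps at chr12:18266599-18267255, can share reads with Bnip3l, and it was listed at 8.15, 10.5 and 0 TPM in the untrained 6 h libraries and at 11.3 TPM in trained 0 h replicate 3. The 3 libraries with the most of the copy were among those low in Bnip3l, whereas trained 6 h replicate 1 with 27.0 TPM and trained 72 h replicate 2 with 31.2 TPM of Bnip3l had the copy at 0. The division of reads between both is uncertain. With both summed, the log2 difference in untrained muscle at 6 h was -0.59 (limma adjusted p = 0.155) and that in trained muscle was -0.57 (limma adjusted p = 0.154), an alternative that was chosen after seeing the data. The ratio of Bnip3 to Bnip3l was 2.51 to 2.80 in sedentary muscle, 3.18 to 8.09 in untrained and 3.65 to 5.30 in trained muscle at 6 h.

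Lamp2, a main protein of the lysosomal membrane that is needed for fusion with autophagosomes, was the most stable of the 10 genes. It ranged from 13.8 TPM in untrained 6 h replicate 1 to 18.6 TPM in trained 0 h replicate 3. The log2 differences from sedentary muscle lay between -0.05 and 0.18, none passed the test, and in untrained muscle at 6 h the 95% CI was -0.17 to 0.14.

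Since the kit used for the libraries does not mark the strand, reads of genes that overlap on opposite strands cannot be told apart. In the GENCODE annotation of GRCm39 this concerns Gabarapl1 with the non-coding 1700101I11Rik, Sqstm1 with Mrnip and Mgat4b, Map1lc3b with Zcchc14, Wipi1 with Arsg and Gm39442, and Bnip3 with Gm45507 and Gm18258. Gm44243 overlaps Gabarapl1 on the same strand.

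The windows around the RefSeq starts were inspected for motifs of factors that are known to act on autophagy genes. RefSeq windows (GRCm38.p6) were available for 8 of the 10 genes, all but Map1lc3a and Bnip3l, and the 250 bases before each start were placed in GRCm39 by exact match. The search covered these and the 50 bases after the start. The windows before the starts of Gabarapl1 and Sqstm1 lay entirely within annotated exons of longer transcripts of the same gene, at 250 of 250 bases each, so that they do not cover the starts of those transcripts. The E-box CACGTG, bound by TFEB and other factors, was found in 1 of these 8 genes, Bnip3, with its first base 108 bases before the start. It was present in 7.15% of 32851 windows of all genes and, counted by gene, in 12.2% of the 8172 tested genes with a window. The core of the hypoxia response element, GCGTG on either strand, flanked it at 2 places in the stretch shown here, at chr7:138511326-138511355 on the minus strand and outside any annotated exon. Capitals mark the E-box in the middle and the hypoxia cores, read on the other strand, on its sides.

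Bnip3: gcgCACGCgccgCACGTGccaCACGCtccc

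GCGTG was also found before the starts of Ulk1, Map1lc3b, Wipi1, Tfeb and Lamp2, 6 of the 8 genes with Bnip3, and is present in 32.4% of all windows and in 56.9% of the tested genes. The variant ACGTG, which the E-box contains, was found only in Bnip3 among the 8 genes, and in 19.6% of all windows and 30.2% of the tested genes. None of these letters was found in the windows of Gabarapl1 (chr6:129509905-129510154) and Sqstm1 (chr11:50101648-50101897). GTCACGTG, the E-box with the flank of the lysosomal CLEAR element, and GTAAACA, a forkhead box O motif, were found in none of the 8 genes, and in 2.25% and 3.65% of all windows and 5.03% and 3.06% of the tested genes. A match or its absence describes the letters of the window alone.

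To place these genes among the rest of the pathway, 105 genes of autophagy were listed by their step, of which 103 passed the filter on expression, all but Atg9b and Sesn2. The lists include the 10 genes above. They were drawn up with earlier results of these data known, so their shares of called genes are descriptive. In untrained muscle at 6 h, 12 of 103 were called (11.7%, against 4.22% of all tested genes), all higher, and of all called genes 400 were higher and 99 lower. In trained muscle at 6 h 8 of 103 were called (7.77%, against 3.81%), 7 higher and 1 lower, and of all called genes 285 were higher and 165 lower. At 0 h, 2 of 103 were called in either group (1.94%, against 2.89% and 3.21%), both higher. At 72 h limma called 0 of 103 in either group (against 0.00846% and 0.245%), with 8 in untrained and 10 in trained muscle at an unadjusted p below 0.05, against 6.06% and 12.8% of all genes. Without the 10 genes, the median log2 fold change at 6 h was 0.06 in untrained and 0.05 in trained muscle.

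At 6 h an unadjusted p below 0.05 was reached by 22.1% of all tested genes in untrained and 25.2% in trained muscle, against which the following counts are to be read. By step, none of the 5 genes of the ULK complex, the 8 of the phosphatidylinositol 3-kinase complex or the 7 of membrane delivery was called by limma in either group. At an unadjusted p below 0.05, the 3 lists had 1, 1 and 0 genes in untrained and 2, 1 and 1 in trained muscle. Of the 11 genes of ATG8 conjugation, Atg7, the enzyme that activates ATG8 proteins, fell by 0.69 in trained muscle at 6 h (limma adjusted p = 0.0429), from 2.09 to 4.72 TPM in sedentary to 1.74 to 1.79 TPM in trained libraries. This call was lost in each of 5 fits that left out 1 library, sedentary replicate 2 or 3 or any of the trained 6 h replicates (limma adjusted p between 0.0873 and 0.145), and without sedentary replicate 2 the change was -0.43. Of the 11 mitophagy genes, limma called 0 in either group, with 3 in untrained and 5 in trained muscle at an unadjusted p below 0.05.

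Of the 9 cargo receptor genes, 3 were called in untrained and 0 in trained muscle at 6 h by limma, with 4 and 3 at an unadjusted p below 0.05. Next to Sqstm1 these were Retreg1, a receptor for the endoplasmic reticulum, and Optn, a receptor for ubiquitinated mitochondria and bacteria. Retreg1 was 32.0 to 66.9 TPM in sedentary and 90.7 to 171 TPM in untrained muscle, a rise of 1.23 (SE 0.34, limma adjusted p = 0.0348), and Optn rose by 0.61 (SE 0.09, limma adjusted p = 0.000609). The call of Retreg1 was lost without sedentary replicate 1 or 3 (limma adjusted p = 0.0526 and 0.129) and without untrained 6 h replicate 2 (0.136), and that of Optn without untrained 6 h replicate 2, at 0.56 and thus below the fold. In trained muscle Retreg1 was 71.9 to 101 TPM and differed by 0.74 (limma adjusted p = 0.189), and the difference between trained and untrained muscle of -0.49 did not pass the test (limma adjusted p = 0.468).

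Among the 18 lysosomal genes, 5 were called in untrained and 3 in trained muscle at 6 h, all higher. Gla, which encodes a lysosomal galactosidase, rose by 0.91 in untrained and 0.66 in trained muscle, and had already risen by 0.96 and 0.78 at 0 h, at low levels of 0.82 ± 0.0755 TPM (SD, n = 3) in sedentary muscle. Npc1, which exports cholesterol from the lysosome, rose by 0.85 and 0.67. The proton pump subunit Atp6v1b2 rose by 0.85 in both groups. All of these passed at adjusted p values between 0.00011 and 0.0103 (limma). In trained muscle the call of Gla was lost at 0 h without trained 0 h replicate 2 (0.63, limma adjusted p = 0.142) and at 6 h without trained 6 h replicate 1, and that of Npc1 at 6 h without trained 6 h replicate 3, the last pair at 0.55 and 0.58 and thus below the fold.

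The pump subunits Atp6v0d1 and Atp6v1a rose in untrained muscle by 0.62 and 0.63 and were not called in trained muscle. The call of Atp6v0d1 was lost without sedentary replicate 1 or untrained 6 h replicate 2, at 0.57 each, and that of Atp6v1a without any of the sedentary replicates or untrained 6 h replicate 2 (limma adjusted p between 0.0558 and 0.0728). For Atp6v1a, the difference between trained and untrained muscle was itself called at -0.71 (limma adjusted p = 0.0218), with 6.31 to 10.3 TPM in untrained and 3.68 to 5.15 TPM in trained libraries. This call was lost without untrained 6 h replicate 2 (-0.49, limma adjusted p = 0.0721), without trained 6 h replicate 2 or 3 (0.0536 and 0.0924), with no filter on expression (0.0519) and when only both groups were fitted (0.307). Atp6v1a was the only called gene of the 103 next to Gabarapl1 in that comparison. Of the 12 genes of autophagosome-lysosome fusion, Rab7, a small GTPase of late endosomes, rose in both groups, by 0.72 and 0.67 (limma adjusted p = 0.00245 and 0.00405).

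Among 17 transcription factors and genes of mTORC1 control, Ddit4, an inhibitor of mTORC1 known as REDD1, had the largest changes of the 103 genes. It stood at 1.03 to 1.71 TPM in sedentary muscle, at 0 h at 22.4 to 31.7 TPM in untrained mice and 20.0 to 49.3 TPM in trained mice, and at 3.77 to 7.48 and 5.21 to 5.78 TPM at 6 h. The rises of 3.89 and 4.12 at 0 h and of 1.78 and 1.72 at 6 h passed the test (limma adjusted p between 5.88e-06 and 0.0029). Foxo1, a transcription factor that activates autophagy genes in muscle, rose by 0.67 in untrained muscle at 6 h (limma adjusted p = 0.002), and Mtor, the kinase that restrains autophagy, rose by 0.71 in trained muscle at 6 h (limma adjusted p = 0.00041). For Foxo1 and Mtor the difference between trained and untrained muscle was not called.

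**Figure D4:**
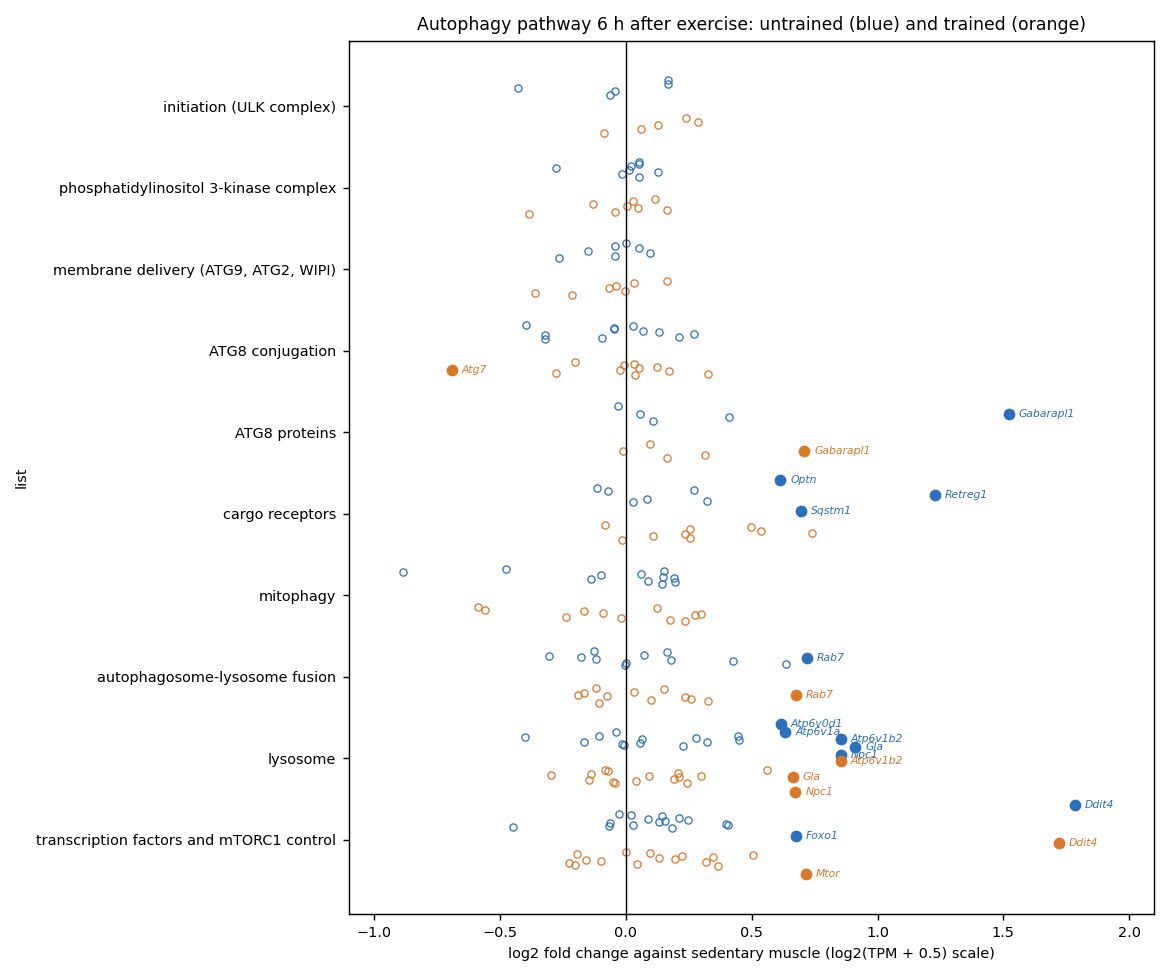
Difference from sedentary muscle (log2 fold change) 6 h after exercise of the tested genes of each pathway list (rows), in blue for untrained and orange for trained muscle, with filled and named points for called genes and open points for the others. The called genes lie in the ATG8, cargo receptor, fusion, lysosome and mTORC1 lists, with Atg7 at -0.69 as the only one below 0.

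Markers of other cell types were inspected in the same libraries, as in bulk tissue a change in the number of cells of a type cannot be told apart from a change in RNA per cell. Of 10 macrophage markers, 8 were tested and 2 were called in untrained muscle at 6 h, Cd68 at 1.62 and Csf1r at 0.61, and both were lower in trained than in untrained muscle, at -1.47 and -0.78. The macrophage markers summed to 44.9 to 49.2 TPM in sedentary mice and at 6 h to 40.0, 84.6 and 66.8 TPM in untrained mice and 37.3 to 55.1 TPM in trained mice, and none of them was at 0 in every library. The untrained 6 h libraries had, in the same order, 52.5, 62.6 and 53.2 TPM of Gabarapl1 and 263, 319 and 301 TPM of Sqstm1. The part of macrophages in these levels was not tested.

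The 6 neutrophil markers summed to at most 1.72 TPM in these libraries and were not tested. The 5 satellite cell markers summed to 7.26 to 11.3 TPM in sedentary mice and at 6 h to 12.9 to 21.2 TPM in untrained mice and 9.52 to 11.6 TPM in trained mice. Only 2 of the 5 were tested. In untrained muscle at 6 h 1 of these 2 was called, Myod1 at 1.49, and their median log2 fold change was 0.78. The 6 slow fibre markers summed to 368 to 759 TPM in sedentary mice. At 6 h they summed to 181 to 293 TPM in untrained mice and 968, 303 and 516 TPM in trained mice. In untrained muscle Tnnt1 was called at -1.30. There 5 of the 6 had an unadjusted p below 0.05 in limma, against 22.1% of all genes, with a median log2 fold change of -1.15. In trained against sedentary muscle 0 of the 6 did, with a median of 0.16. Between trained and untrained muscle limma called 0, and 6 of 6 had an unadjusted p below 0.05, against 19.1% of all genes, with a median of 1.26. In the same comparison limma called 1 of the 8 muscle fibre markers, higher in trained muscle. Of these 8, 5 had an unadjusted p below 0.05, and their median log2 fold change was -0.11. Trained 6 h replicate 1 had the most slow fibre messages and the highest Gabarapl1 level of its group, and a link was not tested. The 6 markers of fibro-adipogenic cells summed to 269 to 308 TPM in sedentary mice and at 6 h to 179.8, 434 and 317 TPM in untrained mice and 266 to 304 TPM in trained mice, with Ly6a called at 0.62 in untrained and Col3a1 at -1.35 in trained muscle. The median log2 fold change of these 6 markers at 6 h was -0.14 in untrained and -0.26 in trained muscle. Ly6a thus went against the median of its list. Of 5 adipocyte markers 4 were tested and limma called 0 at 6 h, with 0 in untrained and 1 in trained muscle at an unadjusted p below 0.05, while their sum was 23.2 to 39.4 TPM in sedentary mice, 22.9, 30.7 and 102 TPM in untrained mice and 87.1, 33.9 and 72.6 TPM in trained mice. The 6 endothelial markers summed to 47.8 to 58.7, 43.2 to 54.9 and 53.1 to 64.3 TPM, and 6 red blood cell markers to 322 to 450.2, 296 to 306 and 297 to 324 TPM in sedentary, untrained 6 h and trained 6 h mice, with 0 called by limma in either list. At an unadjusted p below 0.05 these lists had 2 and 0 genes in untrained and 0 and 1 in trained muscle. No marker of these lists was at 0 in every library. The part of these cell types in the changes of Gabarapl1 and Sqstm1 was not tested.

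Finally, genes with a pattern most like that of the called genes were sought among 9692 protein-coding genes by the Pearson correlation over the 19 libraries, which share groups. For Gabarapl1 these were Lrrc2 (r = 0.95), Rnf115 (r = 0.93) and Ampd3 (r = 0.93). Rnf115, a ubiquitin ligase, stood at 21.6 ± 1.05 TPM in sedentary mice and at 6 h at 76.4 ± 10.2 TPM in untrained mice and 36.0 ± 9.86 TPM in trained mice (SD, n = 3 each), and Ampd3, an AMP deaminase, at 2.25 ± 0.282, 6.60 ± 1.64 and 3.18 ± 1.14 TPM. Both had the same order at 6 h as Gabarapl1, as genes chosen by their correlation with it over these libraries would tend to. For Sqstm1 the most alike were Fmnl2, Usp28 and Hmox1 (r = 0.80 each). Hmox1, the stress-inducible heme oxygenase, stood at 2.46 ± 0.159, 8.73 ± 1.90 and 5.36 ± 0.97 TPM in sedentary, untrained 6 h and trained 6 h muscle (SD, n = 3 each).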

How the data were processed

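RNA-seq libraries had been prepared from quadriceps muscle with a TruSeq kit and sequenced in pairs. Reads were mapped by the authors to GRCm39, with STAR (version 2.7.9 in the submitters' processing notes), quantified with salmon 1.5.0 and deposited as TPM values per gene symbol. The annotation and how transcripts were summed are not given in the sources used here. TPM keeps no depth, so no counting interval can be given and precision rests on the spread between samples. The labels do not say how replicates were taken beyond separate samples, so that p-values measure the spread between these samples.

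The deposited TPM values were put on a log2(TPM + 0.5) scale. This scale understates the change of low genes. Genes whose mean level reached 1 TPM were fitted with limma 3.58.1 (trend) in R 4.3.3, with 7 group means and 12 residual degrees of freedom, and p-values were adjusted within each of the 9 comparisons. The text names the 10 genes, the called genes of the pathway lists (up to 3 a list), and for Gabarapl1 and Sqstm1 the 3 most correlated genes. The further lysosomal genes Atp6v0d1 and Atp6v1a are named in addition and were chosen after their values were seen, and so were Gabarap and Gabarapl2. The genes and lists were chosen with earlier results of these data known. The motif search covered the windows of RefSeq. The procedure was tested on simulated data. Alternatives were other pseudocounts, filters and scalings, fits of only the groups compared, the replicate number as a block, the 0 h groups as deposited, no minimum fold and leaving out each library. Plots were made in Python 3.11.15 (matplotlib 3.10.9).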

Additional observations from a re-analysis of the deposited data

Results flagged for a closer look

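A difference between trained and untrained muscle was seen at 6 h for Gabarapl1 (-0.81 on the log2 scale) and for Atp6v1a (-0.71), both tested directly with limma. The call of Gabarapl1 was lost when only both groups were fitted (limma adjusted p = 0.278) and held in the other alternatives. The call of Atp6v1a was lost without untrained 6 h replicate 2 (limma adjusted p = 0.0721), without trained 6 h replicate 2 or 3 (0.0536 and 0.0924), with no filter on expression (0.0519) and when only both groups were fitted (0.307). Gabarapl1 lay on opposite sides of the sedentary libraries at 0 h, with trained above untrained muscle by 0.58 on the log2 scale, and at 72 h, by 0.29, in every library compared, and neither difference passed the test. Each 0 h group held n = 2 libraries, and the share of all tested genes that separate in this way was not determined.

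The library that is listed in both 0 h groups had 271 TPM of Sqstm1, 143 TPM of Map1lc3a, 112 TPM of Map1lc3b, 163 TPM of Bnip3 and 16.4 TPM of Lamp2, each above all sedentary libraries. It was below all of them for Tfeb (20.4 TPM), Wipi1 (21.5 TPM) and Bnip3l (33.3 TPM), and within their range for Gabarapl1 (19.7 TPM) and Ulk1 (14.5 TPM). These are 5, 3 and 2 of the 10 genes, and of all tested genes 51.3% were above, 14.2% below and 34.4% within the sedentary range in this library. It is of either group or of neither, and it takes no part in the main comparisons.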

How the results depend on the processing

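Of 280 counts of called genes under the alternatives, 256 stayed within 1.5 times the main count and 24 did not. The 256 include counts of 0 that stayed at 0. For the 10 genes, the main count was 0 in every comparison at 0 h and 72 h. For the 8 pairs of gene and comparison that were called under any setting, 127 log2 fold changes were set against the main fit. Of these, 117 kept their call or lack of it, and none changed direction. Some alternatives, such as no minimum fold, leave the log2 fold change as it is. Among pairs never called, directions did change, as for Tfeb in untrained muscle at 0 h, from 0.04 to -0.06 with median-of-ratios scaling. The call of Gabarapl1 in untrained muscle at 6 h held in every alternative run, at 1.44 to 1.57. When only the groups compared were fitted, 1, 0 and 0 of the 10 genes were called at 6 h in untrained, trained, and trained against untrained muscle, and 6, 5 and 0 of the pathway genes, with 1 in trained muscle at 0 h. Without a minimum fold, 1 of the 10 genes was called in trained muscle at 0 h and 2 at 6 h, and 10, 23, 17 and 4 pathway genes in trained muscle at 0 h, untrained and trained muscle at 6 h, and trained against untrained muscle at 6 h. With a mean of at least 5 TPM, 1 pathway gene was called at 0 h in untrained and 1 in trained muscle, and 5 in trained muscle at 6 h. With no filter on expression, 1 was called in trained against untrained muscle at 6 h, Gabarapl1 and not Atp6v1a. Leaving out each library in turn gave 1 to 3 of the 10 genes in untrained and 0 to 1 in trained muscle at 6 h, and 1 to 3 pathway genes in trained muscle at 0 h, 5 to 8 in trained muscle at 6 h, and 1 to 2 in trained against untrained muscle at 6 h. The low ends in trained muscle came without trained 0 h replicate 2 and trained 6 h replicate 1, and the last without trained 6 h replicate 2 or 3, where Atp6v1a was lost. Atp6v1a was also lost in that comparison without untrained 6 h replicate 2. The labels do not say whether samples with the same replicate number were paired. Over the tested genes, deviations of samples with the same number correlated at -0.0875 to 0.0896. Those of samples with different numbers correlated at -0.124 to 0.125. Pairing over all genes was thus not seen, and pairing that touches only some genes cannot be judged from these values. With the replicate number as a block, the log2 change of Gabarapl1 in untrained muscle at 6 h was 1.52 (limma adjusted p = 9.35e-05), the counts of called genes among the 10 were the same in all 9 comparisons, and 11 in place of 12 pathway genes were called in untrained muscle at 6 h, all but Retreg1 (limma adjusted p = 0.0512). Scaling by median of ratios moved the median of all genes in trained muscle at 0 h by -0.13, and rescaling without the mitochondrial genome moved it by -0.14 in trained and -0.12 in untrained muscle at 0 h. After this rescaling Map1lc3a differed by 0.15 in trained muscle at 0 h (limma adjusted p = 0.239), and Map1lc3b, Bnip3 and Lamp2 by -0.03, 0.01 and -0.05 in untrained muscle at 0 h. The unknown depth limits what can be said of low genes such as Gla and Atg7.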
